A study of Mus musculus with 18 samples.

Results

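Genes of serine, glycine and proline synthesis, with the asparagine-forming Asns and the amino acid transporter subunit Slc7a5, were followed here in mouse embryonic fibroblasts (MEF). They were compared across TGF-β treatment and delivery of miR-29b, a microRNA known for targeting collagen transcripts. The gene table was searched by symbol for 10 names, Phgdh, Psat1, Psph, Shmt1, Shmt2, Mthfd2, Aldh18a1, Pycr1, Asns and Slc7a5, and all 10 were found among its 55450 genes. The rule names them by their function. The cells came as a purchased MEF culture and were transfected with 1 of 3 plasmids. The control was empty pcDNA3. Col1a1-miR-29b carried EGFP and the human miR-29b-1 precursor behind the rat Col1a1 promoter, a promoter active in collagen-producing cells, with mRFP1 behind an SV40 promoter. CMV-miR-29b differed from it in having the constitutive CMV promoter in that place. Each plasmid was used without TGF-β or with TGF-β added 6 h after transfection and kept for 24 h, which gave 6 groups of 3 libraries. The plasmids were matched in moles, so the mass of DNA was larger for Col1a1-miR-29b than for CMV-miR-29b, and the empty plasmid is not described as carrying EGFP or mRFP1. A difference from the empty vector therefore cannot be told apart from an effect of the plasmid's other contents or its mass, and transfected and untransfected cells were measured together. Age and sex of the source embryos were not given in the sources used here.

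The 18 poly(A) libraries held between 65898017 and 80332633 gene counts, with a median of 74155860. After a filter on low counts, 21161 genes were tested, and all 10 members were among them. The fibroblast markers Col1a1 (752 to 2421 CPM, here the gene count relative to the library total), Vim (440 to 751) and S100a4 (85.2 to 131) were present in every library, whereas the fibroblast marker Thy1 was between 0 and 0.114. The epithelial markers Epcam, Cdh1 and Krt8 did not exceed 0.0607, 0.607 and 0.344. The endothelial marker Pecam1 lay between 0.311 and 1.03 and Cdh5 between 0.312 and 1.97. The leukocyte marker Ptprc did not exceed 0.333, and the macrophage gene Cd68 lay between 8.15 and 13.3 CPM. The summed leukocyte markers spanned 11.6 to 12.2 CPM in untreated empty vector libraries and 12.0 to 13.6 in untreated Col1a1-miR-29b libraries, and their part in the results was not tested. The summed endothelial markers went from 0.699 to 1.24 CPM in untreated to 1.92 to 2.45 in treated empty vector libraries, and Cdh5 rose with TGF-β averaged over the plasmids (log2 1.11, adjusted p = 0.000414), and the part of these markers in the TGF-β results was not tested either. Krt8, near the floor, also rose in that averaged comparison (log2 4.38, adjusted p = 0.0168). Of 6 fibroblast markers tested there, 4 were higher and 1 lower, S100a4 (log2 −0.27, adjusted p = 0.000236). In bulk RNA, fewer cells of a type and less RNA per cell cannot be told apart.

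Glycine recurs at regular steps along the collagen helix, and proline and its hydroxylated form fill many positions between. Cells make serine from the glycolytic intermediate 3-phosphoglycerate in a sequence of reactions run by Phgdh, Psat1 and Psph. The cytosolic Shmt1 and mitochondrial Shmt2 then convert serine to glycine and pass its side-chain carbon to folate, where the mitochondrial Mthfd2 oxidises it. Proline is made from glutamate by Aldh18a1, which opens the path, and Pycr1, which closes it. Asns makes asparagine and Slc7a5 is the catalytic subunit of the LAT1 transporter that brings in large neutral amino acids. Many of these genes are known targets of the transcription factor ATF4, which is translated under amino acid shortage and endoplasmic reticulum stress and is also known to act downstream of TGF-β in fibroblasts.

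Because the plasmids encode miR-29b, the members' 3′ untranslated regions were searched for the miR-29b seed match, given here so that the members with and without a match can be set beside their values. The mature RefSeq sequence of mouse miR-29b-3p (GRCm38.p6 chr6:31063025-31063047, minus strand, from Mir29b-1) is shown with its seed, bases 2 to 8, in capitals:
mmu-miR-29b-3p: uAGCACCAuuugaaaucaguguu
The match searched was TGGTGCT on the transcript strand. It occurred in 2257 of 14511 tested genes with an annotated coding transcript (15.6%) and in 2 of the 10 members, Pycr1 and Slc7a5. The site of Pycr1 lies in the 3′ untranslated region at chr11:120636282-120636288 (minus strand, 1 of 2 transcripts), from base 963 of 1539, and that of Slc7a5 at chr8:121881534-121881540 (minus strand), from base 1500 of 1890. They are set here beside the sites of Col1a1 (chr11:94952538-94952544, plus strand) and Col3a1 (chr1:45348982-45348988, plus strand), collagen chains that also hold the match, each with its flanks and the match in capitals:
Pycr1 site: ggacccacggcTGGTGCTtcctaaatgac
Slc7a5 site: gcagggattcaTGGTGCTgacccaggctc
Col1a1 site: gaaggaatttcTGGTGCTatagaagctga
Col3a1 site: aaatgtctcaaTGGTGCTataataaataa
Psat1, Mthfd2 and Aldh18a1, which are described below as lower with Col1a1-miR-29b, held no match in the annotated regions, and neither did Col1a2, the partner chain of Col1a1. A match is a run of letters and not a measured site of binding.

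The promoters were searched for TGATGNAA, the core of the element that ATF4 and C/EBP proteins bind together, on both strands from 250 bases before to 50 after each RefSeq start (GRCm38.p6). The motif was in 1304 of 32851 promoters (3.97%) and in 2 of the 9 members with an entry, Asns and Pycr1. In Asns the match began 23 bases before the start and in Pycr1 103 bases before it. The 30-base windows around it, at chr6:7693214-7693243 and chr11:120643833-120643862, are written on the minus strand with the motif in capitals:
Asns promoter: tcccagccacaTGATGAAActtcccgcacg
Pycr1 promoter: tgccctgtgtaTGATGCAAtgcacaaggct
Both are in genes on the minus strand. The Asns window lies inside the gene as the deposited table draws it, since that table places the start further upstream, at 7693254. Members without a match lack only these letters in this window.

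Per unit of transcript length, Asns was the most abundant member, with a mean of 128 ± 10.7 FPKM (SD over the 16 libraries with a usable FPKM column). Phgdh (106 ± 8.97), Slc7a5 (102 ± 7.44) and Shmt2 (97.5 ± 4.21) followed, then Psat1 (76.9 ± 7.54) and Aldh18a1 (76.3 ± 6.79). Mthfd2 stood at 35.7 ± 3.29, and Shmt1 (17.8 ± 1.07), Psph (17.0 ± 1.63) and Pycr1 (16.0 ± 2.79) were lowest. Neighbours in this order from Phgdh to Shmt2, from Psat1 to Aldh18a1 and from Shmt1 to Pycr1 differed by less than the larger of their SDs. The last enzyme of proline synthesis was thus measured at a lower level per length than Aldh18a1, which starts it: Pycr1 ranged from 11.5 to 21.4 FPKM and Aldh18a1 from 64.0 to 83.5. CPM values scaled by TMM, a correction of library size for composition, are used from here on for comparing libraries within a gene. All 10 genes lie on the minus strand. On GRCm38 the genes that passed a test below span chr3:98313170-98339990 (Phgdh), chr19:15904678-15947337 (Psat1), chr10:127517123-127522444 (Shmt2), chr6:83305691-83317606 (Mthfd2), chr19:40550257-40588463 (Aldh18a1) and chr11:120635712-120643748 (Pycr1). Within groups the coefficient of variation ran from 0.817% for Mthfd2 in Col1a1-miR-29b cells with TGF-β to 13.8% for Pycr1 in empty vector cells with TGF-β. In the latter group, replicate d held the lowest value of 8 of the 10 members.

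**Figure D1:**
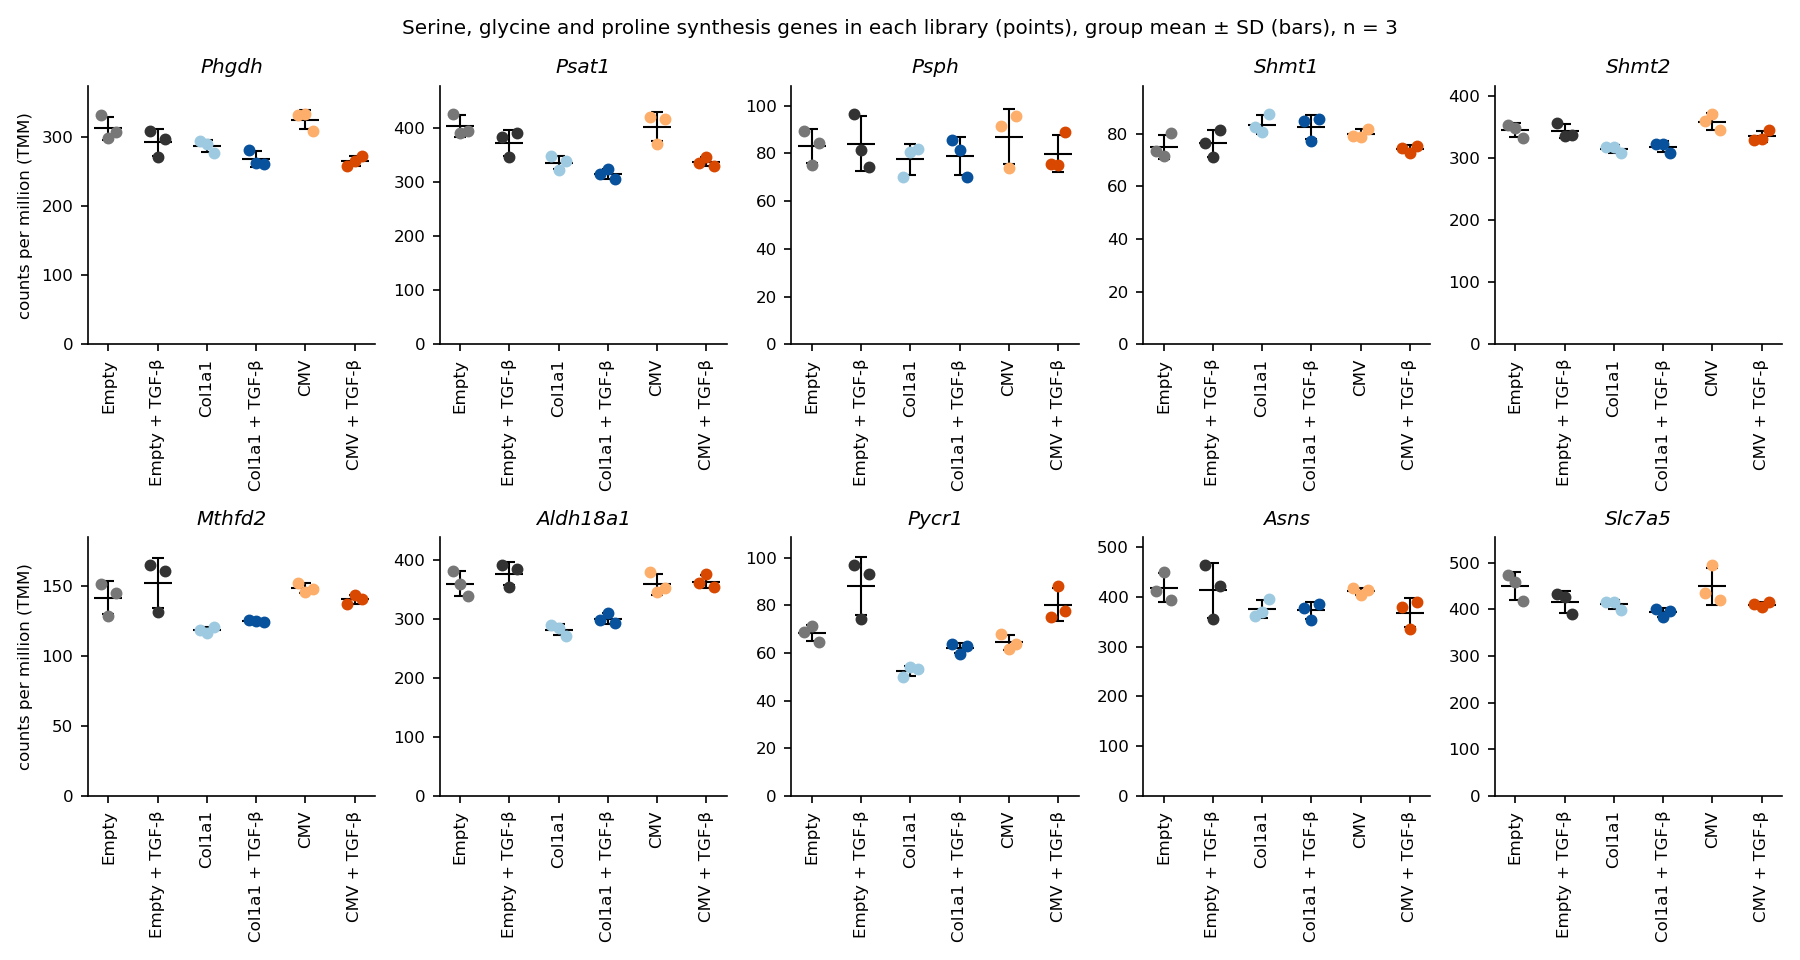
TMM-scaled CPM (vertical axes, starting at 0) of the 10 genes in each of the 18 libraries, with group means and SDs as bars. The 6 Col1a1-miR-29b libraries sit below the other 12 for Shmt2, Mthfd2 and Aldh18a1, and Pycr1 is higher with TGF-β under each plasmid. The share of all genes with such a separation was not counted.

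TGF-β raised Pycr1 and lowered Phgdh and Psat1 when its effect was averaged over the 3 plasmids, and the other 7 members did not pass the test. Pycr1, the proline-forming reductase, rose 1.24-fold (log2 fold change 0.31, SE 0.0501, adjusted p = 0.000397). Phgdh, which commits carbon to serine, fell to 0.894-fold (log2 −0.16, SE 0.0310, adjusted p = 0.00176). Psat1, the aminotransferase that follows it, fell to 0.899-fold (log2 −0.15, SE 0.0323, adjusted p = 0.00363). Over all tested genes 13.7% were called in this comparison, 7.83% higher and 5.86% lower, so that the members' 1 higher and 2 lower stand against these shares. The 3 calls were kept when each of the 18 libraries was left out in turn. With library totals in place of TMM, 46.8% instead of 57.2% of all called genes were higher, and the 3 members kept their calls while Slc7a5 passed as well, lower.

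For Pycr1, untreated empty vector libraries (replicates c, d and e) held 68.7, 71.5 and 64.7 CPM, and treated ones 96.9, 74.2 and 93.2. Untreated Col1a1-miR-29b libraries held 49.9, 54.1 and 53.2 and treated ones 63.8, 59.6 and 62.9, the last of each group being the library lettered f. That letter occurs in the gene table for both Col1a1-miR-29b groups but in no sample title, where the remaining sample of each group is lettered e, so these 2 libraries could be assigned to a group only. Among CMV-miR-29b libraries, the untreated held 67.9, 61.8 and 63.8 and the treated 75.1, 88.3 and 77.7. Treated and untreated libraries did not overlap under any plasmid, and replicate d was the lowest of the treated empty vector libraries. The rise was 1.29-fold with the empty vector (log2 0.37, 95% confidence interval 0.18 to 0.55, adjusted p = 0.018) and 1.25-fold with CMV-miR-29b (log2 0.32, 0.13 to 0.50, adjusted p = 0.0481). With Col1a1-miR-29b it was 1.19-fold (log2 0.25, 0.06 to 0.43) and did not pass (adjusted p = 0.161). The adjusted p of the rise with the empty vector reached up to 0.111 when a library was left out (it was lost without replicate c or e of either group), and that with CMV-miR-29b up to 0.232, where it passed only without replicate c of the treated group. Of 11 alternatives, the former was kept in 7 and the latter in 4 (adjusted p up to 0.135).

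Phgdh fell past the test under CMV-miR-29b alone among the 3 plasmids. There, the untreated libraries held 332, 334 and 309 CPM and the treated ones 258, 266 and 274, with no overlap. The change was 0.817-fold (log2 −0.29, 95% confidence interval −0.41 to −0.18, adjusted p = 0.00348). In empty vector cells the untreated values of 332, 299 and 308 overlapped the treated values of 309, 271 and 298 (log2 −0.10, adjusted p = 0.391), and in Col1a1-miR-29b cells 294, 290 and 278 overlapped 282, 263 and 261. The test of the difference between the CMV-miR-29b and empty vector responses gave −0.19 on the log2 scale (SE 0.0758, 95% confidence interval −0.35 to −0.03) with an adjusted p of 0.922, so that a difference in the response of Phgdh was not shown.

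Psat1, like Phgdh, had a negative log2 change under each plasmid. With CMV-miR-29b it went from 421, 371 and 416 to 336, 347 and 331 CPM, 0.839-fold (log2 −0.25, SE 0.0560, adjusted p = 0.0130). All treated libraries lay below all untreated ones. In empty vector cells the values were 427, 391 and 395 without and 383, 346 and 390 with TGF-β (log2 −0.12, adjusted p = 0.313). The call under CMV-miR-29b was lost without replicate c or e of either group.

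In each plasmid taken alone, TGF-β moved few members past the test. With the empty vector 1 of 10 was called, against 5.88% of all tested genes. With Col1a1-miR-29b 0 of 10 were called by edgeR, against 4.32% of all genes, with 1 at an unadjusted p under 0.05 and 0 by DESeq2. With CMV-miR-29b 3 of 10 were called, against 4.95%. Of all genes called in empty vector cells 65.9% were higher, and 53.1% with library totals in place of TMM. Psph, the phosphatase of serine synthesis, had an averaged log2 change of −0.03 (adjusted p = 0.883), Shmt1 −0.03 (0.644) and Shmt2 −0.03 (0.479). Mthfd2 had 0.03 (0.711), Aldh18a1 0.06 (0.247) and Asns −0.06 (0.495). Slc7a5, the transporter subunit, came nearest to passing, at −0.10 (SE 0.0344, adjusted p = 0.0614). By comparison, the averaged log2 change was 1.14 for Col1a1, 1.29 for Col1a2 and 0.80 for Col3a1, the collagen chains, all of which rose past the test.

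**Figure D2:**
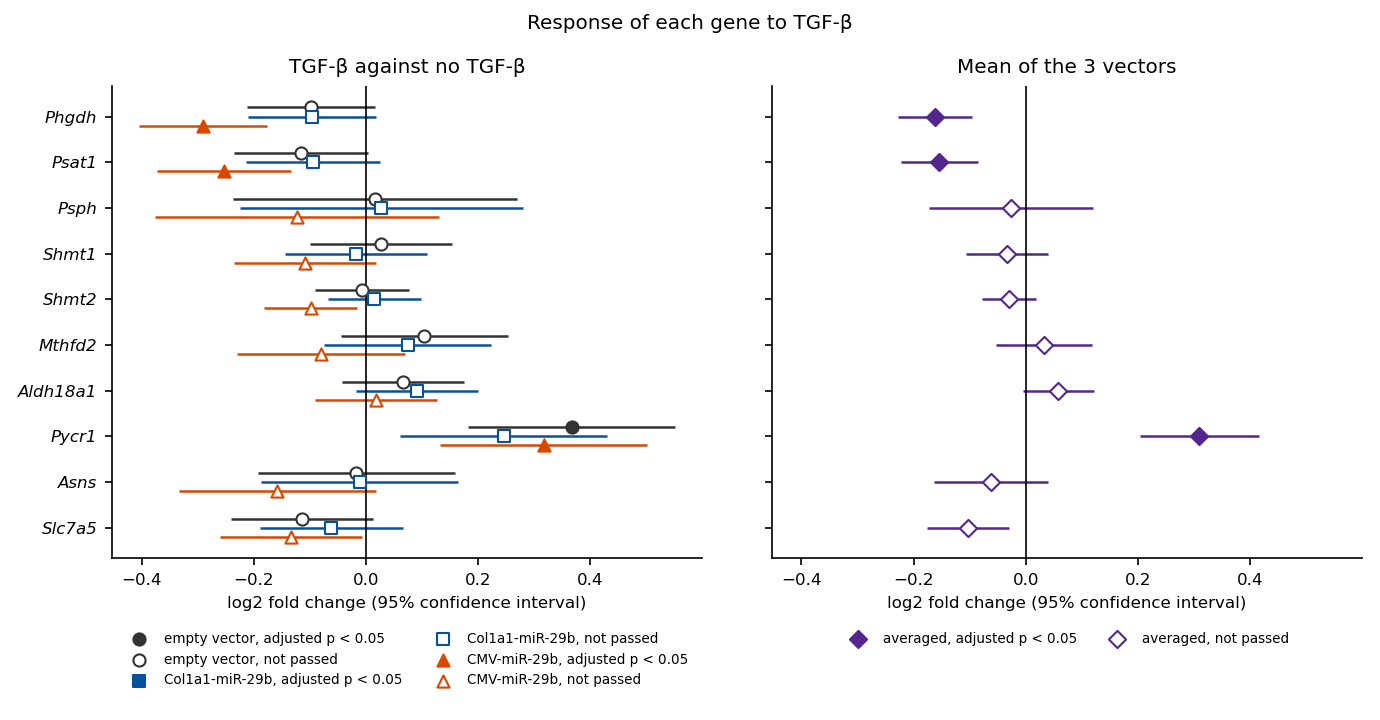
Log2 fold change with TGF-β (horizontal axis, 95% confidence intervals) of the 10 genes for each plasmid (left) and averaged over the 3 plasmids (right); filled symbols passed an adjusted p of 0.05. Pycr1 lies to the right of 0 in all estimates, and Phgdh and Psat1 lie to the left.

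Cells with Col1a1-miR-29b held less RNA of both proline synthesis enzymes, of Psat1 and of Mthfd2 than empty vector cells, both without and with TGF-β. Without TGF-β 4 of the 10 members were lower and 0 higher, against 3.70% lower and 2.57% higher of all tested genes. With TGF-β the same 4 genes were lower and 0 higher, against 7.63% and 5.31%. The 2 comparisons share no library. The count without TGF-β fell to 1, Aldh18a1, with the replicate block, without the 2 libraries lettered f and by limma on FPKM, and that with TGF-β to 2, Aldh18a1 and Pycr1. In each, 9 of the 10 members had a negative log2 change, and the median over members was −0.14, where that over all tested genes was 0.02. With library totals in place of TMM, 51.4% instead of 40.9% of all called genes were higher without TGF-β, and 52.6% instead of 41.0% with it.

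Aldh18a1, the entry enzyme of proline synthesis, held its call under every setting in both states. Empty vector libraries held 382, 360 and 340 CPM without TGF-β, and Col1a1-miR-29b libraries 291, 285 and 272. With TGF-β the values were 392, 356 and 385 against 299, 311 and 293. Each of the 6 Col1a1-miR-29b libraries lay below each of the other 12 libraries, CMV-miR-29b included. How many of all tested genes separate in this way was not counted. The fold was 0.783 without TGF-β (log2 −0.35, 95% confidence interval −0.46 to −0.24, adjusted p = 0.00245) and 0.797 with it (log2 −0.33, −0.44 to −0.22, adjusted p = 0.00119). Both calls were kept in every fit with a library left out and in each of the 11 alternatives tried.

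Pycr1, whose values are given above, was 0.767-fold without TGF-β (log2 −0.38, 95% confidence interval −0.57 to −0.20, adjusted p = 0.0193) and 0.705-fold with it (log2 −0.50, −0.69 to −0.32, adjusted p = 0.00208). Treated Col1a1-miR-29b libraries stood at 59.6 to 63.8 CPM, below even the untreated empty vector libraries, whose lowest was 64.7. The call without TGF-β was lost when Col1a1-miR-29b replicate c or empty vector replicate c or d was left out, while the call with TGF-β was kept in all 6 such fits. Of 11 alternatives, the former was kept in 7 (adjusted p up to 0.106) and the latter in all. Of these 4 lower genes, Pycr1 is the only one with the seed match shown above, and Slc7a5, the other member with a match, did not pass (log2 −0.13, adjusted p = 0.208 without TGF-β, and −0.08, 0.444 with it).

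Psat1 stood at 427, 391 and 395 CPM in untreated empty vector libraries and at 348, 323 and 339 in Col1a1-miR-29b libraries, and with TGF-β at 383, 346 and 390 against 316, 324 and 306. The groups did not overlap in either state. The fold was 0.833 (log2 −0.26, SE 0.0560, adjusted p = 0.0138) without and 0.845 (log2 −0.24, SE 0.0560, adjusted p = 0.0102) with TGF-β. The first of these was lost without empty vector replicate c or Col1a1-miR-29b replicate d, and the other without treated empty vector replicate e. They were kept in 7 and 6 of 11 alternatives.

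Mthfd2 stood at 151, 129 and 145 CPM in untreated empty vector libraries and at 118, 117 and 121 with Col1a1-miR-29b. With TGF-β the values were 165, 132 and 160 against 126, 125 and 124. All 6 Col1a1-miR-29b libraries were below the other 12, but the empty vector libraries were spread more widely, replicate d being lowest in both states. The fold was 0.837 (log2 −0.26, SE 0.0702, adjusted p = 0.0416) and 0.820 (log2 −0.29, SE 0.0702, adjusted p = 0.0144). Without TGF-β this call was kept in only 1 of 6 fits with a library left out, that without empty vector replicate d, and with TGF-β it was lost without treated empty vector replicate c or e. The calls were kept in 5 and 6 of 11 alternatives.

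Among the remaining members, Shmt2 showed the same separation without passing. Its untreated values were 354, 349 and 333 CPM with the empty vector and 318, 318 and 308 with Col1a1-miR-29b (log2 −0.13, adjusted p = 0.0548), and with TGF-β the log2 change was −0.11 (adjusted p = 0.0763). All 6 Col1a1-miR-29b libraries lay below the other 12 for this gene too. For Shmt2, Mthfd2 and Aldh18a1 alike, the share of all tested genes with such a separation was not counted. Phgdh had a log2 change of −0.12 in both states (adjusted p = 0.194 and 0.160). Shmt1, the cytosolic counterpart of Shmt2, was the only member with positive values, 0.16 (adjusted p = 0.135) and 0.11 (0.259). Psph had −0.10 (0.712) and −0.09 (0.717), and Asns −0.16 (0.300) and −0.15 (0.274).

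With CMV-miR-29b, 0 of 10 members differed from the empty vector in either state, while the background too was near 0. Without TGF-β 0.00473% of all tested genes were called. None of the members passed by edgeR or DESeq2, and 0 did at an unadjusted p under 0.05. The log2 changes ran from −0.08 for Pycr1 to 0.09 for Shmt1. The 95% confidence interval was −0.11 to 0.10 for Aldh18a1, −0.27 to 0.10 for Pycr1, −0.12 to 0.11 for Psat1 and −0.08 to 0.22 for Mthfd2. With TGF-β 0.00945% of genes were called and 0 members passed by edgeR or DESeq2, with 2, Phgdh and Psat1, at an unadjusted p under 0.05 (both log2 −0.14, adjusted p = 0.334). All 10 log2 changes were then negative, or 9 with library totals in place of TMM (Slc7a5 turning positive), with a median of −0.09 against 0.00 for all genes. For Aldh18a1 the value was −0.05 (−0.16 to 0.06) and for Pycr1 −0.13 (−0.32 to 0.05).

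**Figure D3:**
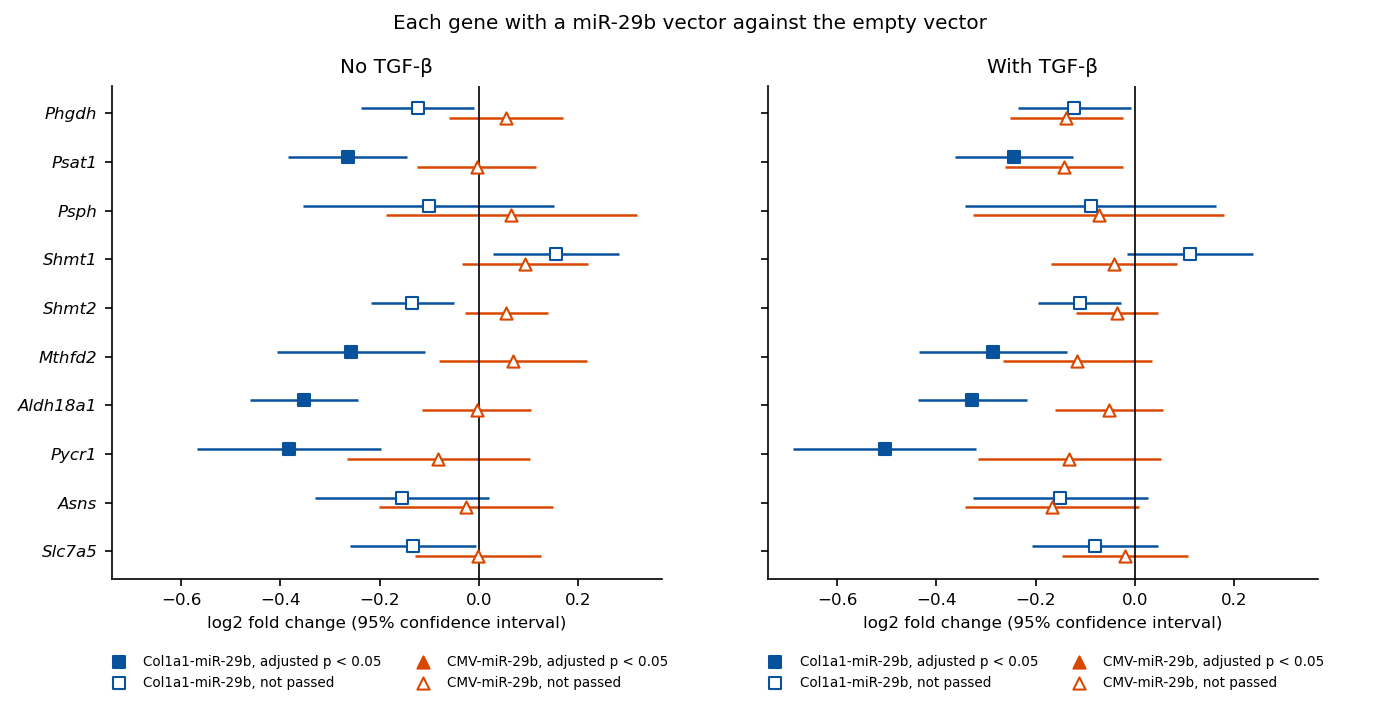
Log2 fold change of the 10 genes with Col1a1-miR-29b (squares) or CMV-miR-29b (triangles) against the empty vector (horizontal axis, 95% confidence intervals), without TGF-β on the left and with it on the right; filled symbols passed an adjusted p of 0.05. Psat1, Mthfd2, Aldh18a1 and Pycr1 passed with Col1a1-miR-29b in both panels, and no gene passed with CMV-miR-29b.

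The direct comparison of the 2 miR-29b plasmids uses the Col1a1-miR-29b libraries again. Without TGF-β 4 members were called, all higher with CMV-miR-29b, against 1.81% of all tested genes called. These were Aldh18a1 (log2 0.35, adjusted p = 0.00474), Mthfd2 (0.33, 0.0321), Psat1 (0.26, 0.0321) and Shmt2 (0.19, 0.0271). Pycr1 had a log2 difference of 0.30 and did not pass (adjusted p = 0.0894). With TGF-β 2 members were called, again higher, against 1.93%, Pycr1 (0.37, adjusted p = 0.0447) and Aldh18a1 (0.28, 0.0178). Without TGF-β the call of Aldh18a1 was kept in all 6 fits with a library left out, those of Psat1, Mthfd2 and Shmt2 in 1 each, and with TGF-β those of Aldh18a1 in 3 and Pycr1 in 0. Of all genes called without TGF-β 55.5% were higher with CMV-miR-29b, and 43.5% with library totals in place of TMM.

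Reads assigned to the mouse Mir29b-1 gene give a partial view of the plasmids' own precursor. They numbered 0 in every empty vector library, 0 to 1 in untreated and 2 to 6 in treated Col1a1-miR-29b libraries, and 110 to 309 in untreated and 203 to 293 in treated CMV-miR-29b libraries. How these reads relate to the members' values was not tested. Poly(A) libraries do not measure mature microRNA, so the level of miR-29b itself was not measured here.

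The size of the TGF-β response was also compared between plasmids. For Col1a1-miR-29b against the empty vector 0 of 10 members and 0% of all genes passed by edgeR, with 0 members by DESeq2 and 0 at an unadjusted p under 0.05. Differences ran from −0.12 for Pycr1 (95% confidence interval −0.38 to 0.14) to 0.05 for Slc7a5. For CMV-miR-29b against the empty vector 0 of 10 members and 0% of all genes passed by edgeR, with 0 members by DESeq2 and 1, Phgdh, at an unadjusted p under 0.05. All 10 differences were negative, or 9 with library totals in place of TMM, where that of Slc7a5 turned positive. The median over members was −0.14, where that over all tested genes was −0.01, with 48.4% of all genes positive. The members share their libraries, so their signs in this and earlier comparisons are not separate observations. The intervals of the differences leave room for differences of about the size of the responses, so equal responses are not shown.

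The genes around the members in the pathway were counted in fixed lists. Genes of folate metabolism and glycine cleavage were tested for 15 of 17, of proline and glutamate metabolism for 15 of 16, amino acid transporters for 19 of 20, genes of ATF4 and the stress response for 22 of 23, and cytosolic aminoacyl-tRNA synthetases, which charge transfer RNAs, for 20 of 20. With TGF-β averaged over the plasmids, 2 folate genes were higher, Aldh1l1 (log2 0.72) and the mitochondrial folate carrier Slc25a32 (0.12), and 2 lower, Gcat (−0.26), whose gene overlaps a further gene model of the same symbol, and Mthfd1 (−0.12). Aldh1l1 lost its call with library totals in place of TMM. In proline and glutamate metabolism 0 were higher and 2 lower, Prodh (−0.31), which breaks proline down, and Got2 (−0.09). Among transporters 3 were higher, led by Slc7a7 (0.70) and Slc7a6 (0.13), and 2 lower, Slc1a5 (−0.15) and Slc38a4 (−0.07). In the ATF4 list 6 were higher, led by Fgf21 (0.36) and Cebpb (0.31), and 2 lower, Atf5 (−0.20) and Eif2ak2 (−0.17). Of the synthetases 1 was higher, Tars (0.10), and 1 lower, Dars (−0.10). The median over each list lay between 0.00 and 0.06, where that of all genes was −0.01. Of all tested genes 7.83% were higher and 5.86% lower in this comparison. In the ATF4 list the shares were 27.3% and 9.09%. In the other lists 0% to 15.8% were higher and 5% to 13.3% lower, within a few genes of the shares of all genes.

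Of all tested genes 3.70% were lower and 2.57% higher with Col1a1-miR-29b without TGF-β, and 7.63% and 5.31% with it, and the list counts that follow stand against these shares. The synthetases were the list with the most lower genes. Without TGF-β 11 of 20 were lower than with the empty vector and 0 higher, with a median of −0.18, and with TGF-β 12 were lower and 2 higher, again with −0.18. Farsb (−0.44 and −0.50) and Eprs (−0.33 and −0.46), the latter joining glutamate and proline to their transfer RNAs, fell in both states, whereas Kars (0.18) and Hars (0.19) were higher with Col1a1-miR-29b in treated cells. All examples in this and the next paragraph were chosen after their values were seen. With CMV-miR-29b 0 of the 20 were called in either state. Only 0.00473% of all tested genes were called there without TGF-β and 0.00945% with it, so this count says nothing particular to the synthetases.

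In the ATF4 list 4 of 22 genes were lower with Col1a1-miR-29b and 1 higher without TGF-β, and 7 lower and 1 higher with it. The remaining 17 without and 14 with TGF-β were not called. Fgf21 (log2 −1.44 and −1.18), Chac1 (−0.66 and −0.68) and Trib3 (−0.54 and −0.60), known ATF4 targets, were lower in both states. Atf4 itself did not pass, with −0.92 (SE 0.433, adjusted p = 0.232) without and −1.12 (SE 0.434, adjusted p = 0.109) with TGF-β. Of 19 transporters 4 were lower and 0 higher in each state, among them the glycine transporter Slc6a9 (−0.71 and −0.85) and the cationic amino acid transporter Slc7a1 (−0.45 and −0.51) in both. In the folate list 2 of 15 were lower in each state, the mitochondrial Aldh1l2 (−0.58 and −0.68) and Mthfd1l (−0.29 and −0.34), and Gcsh (0.21) was higher with TGF-β. In the proline and glutamate list Gpt2 (−0.47 and −0.51) was lower and glutamine synthetase, Glul (0.47 and 0.49), higher in both states, and with TGF-β Got1 (−0.20) was lower, a call lost with library totals in place of TMM, and Got2 (0.11) and Pycrl (0.23) higher. In a list of 15, 1 gene is 6.67%, so the counts of the folate and proline lists lie within a few genes of the shares of all genes and are given as values only. Pycrl, a cytosolic relative of Pycr1, thus had the opposite sign to it. With CMV-miR-29b 0 genes of these lists were called against the empty vector in either state, where 0.00473% and 0.00945% of all tested genes were.

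**Figure D4:**
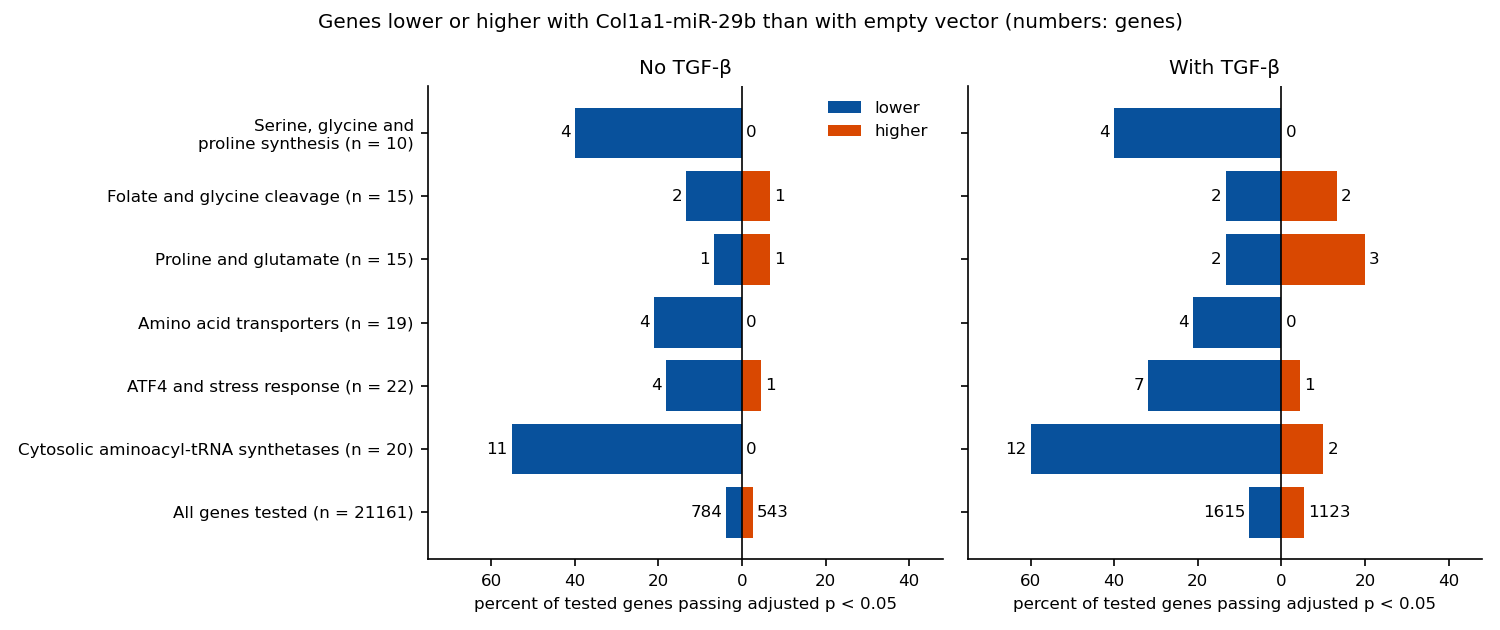
Percent of the tested genes of each list that passed an adjusted p of 0.05 for Col1a1-miR-29b against the empty vector, lower to the left of 0 and higher to the right, without and with TGF-β; numbers at the bars count genes. The 10 members have 4 lower genes in each panel, and the cytosolic aminoacyl-tRNA synthetases have 11 and 12.

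Among the collagen chains themselves, Col1a1 (−0.46), Col1a2 (−0.63) and Col3a1 (−0.87) fell below the empty vector level in treated Col1a1-miR-29b cells, all past the test. Without TGF-β Col3a1 passed there (−0.59), and Col1a1 (−0.24, adjusted p = 0.0883) and Col1a2 (−0.31, 0.0641) did not. With CMV-miR-29b the treated values were −0.37 (adjusted p = 0.124), −0.48 (0.108) and −0.65 (0.0559) for Col1a1, Col1a2 and Col3a1, with every library below the empty vector libraries and none past the test. Over all tested genes, edgeR called 2 in this comparison and DESeq2 264. The authors, who used DESeq2, report collagen isoforms inhibited with this plasmid too. The genes whose pattern over the 18 libraries was most like the members' mean standardised level were Yars (Pearson r 0.940), Angptl6 (0.933), Eif3c (0.929), Sin3a (0.918) and Eif4ebp1 (0.918), out of 13902 genes ranked. Yars is a tyrosyl-tRNA synthetase, Eif3c a translation initiation subunit and Eif4ebp1 a translation repressor. The libraries share their groups and the culture, so these r values describe likeness only.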

How the data were processed

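The authors sequenced poly(A) RNA as stranded paired-end libraries, trimmed reads with cutadapt, checked them with FastQC, aligned them with HISAT2 and assembled and quantified transcripts with StringTie. The submitters' processing notes name mm9, but 52506 of 55450 genes (94.7%) had coordinates identical to GENCODE M21 on GRCm38, the build used here. The deposited table held raw counts per gene and, in the authors' FPKM columns, length-scaled values. The count columns of 2 libraries, 1 in each Col1a1-miR-29b group, carried the letter f, which is in no sample title (the titles have e), and were used as libraries of their group. Their 2 FPKM columns were not used, leaving 16.

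Counts were tested with edgeR 4.0.16 in R 4.3.3, with TMM scaling, filterByExpr and a quasi-likelihood fit of all 6 groups, and Benjamini-Hochberg adjustment over 21161 genes at 0.05. Intervals are at 95%. The methods describe repeated experiments for each group without saying which libraries or letters they correspond to, so p-values measure the spread between these samples. Alternatives were DESeq2 1.42.0, limma 3.58.1 on log2(FPKM + 1) and log2(FPKM + 0.1), library totals, other filters, only the groups compared, a block by letter, and each library left out in turn. The fit was also run on counts simulated with spreads estimated from these libraries. Such counts follow the model's own assumptions, so that run cannot show how well the model suits the real libraries.

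Members and lists were chosen with earlier results of these data known. All 10 members are named in each comparison. Of other lists, the 2 largest rises and falls in the averaged TGF-β comparison are named, with Col1a1, Col1a2 and Col3a1 and the 5 genes most like the members at a mean of at least 1 CPM (counts relative to library size). Further list genes, named for Col1a1-miR-29b against the empty vector, were outside that rule and chosen after their values were seen. Sequences came from RefSeq (GRCm38.p6) and GENCODE M21.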

Additional observations from a re-analysis of the deposited data

How the results depend on the processing

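The members' calls under CMV-miR-29b against the empty vector, TGF-β with Col1a1-miR-29b and both differences in response stayed at 0 in every alternative. For TGF-β with the empty vector, 1 member was called, and 0 with only the groups compared, with the replicate block, and by limma on log2(FPKM + 1) or log2(FPKM + 0.1), with 0 to 1 when a library was left out. With CMV-miR-29b, 3 were called, 1 with only the groups compared, 2 (without Pycr1) in 6 further alternatives and 1 to 2 with a library left out. Averaged over plasmids, 3 were called, 3 to 4 in 10 alternatives and 3 to 4 with a library left out. Slc7a5 was called as well in 4 of those 10 alternatives and in 3 of the 18 fits with a library left out. For Col1a1-miR-29b against the empty vector without TGF-β, 4 were called, but 1 with the replicate block, 1 without the 2 libraries lettered f (added after seeing the data), and 1 and 1 by limma, with 1 to 4 when a library was left out. With TGF-β, 4 were called, 2 with only the groups compared, the replicate block, those libraries left out, or either limma fit, and 6 with offsets for length and GC (added after seeing the data), with 2 (without treated empty vector replicate e) to 6 (without replicate d) when a library was left out. For CMV-miR-29b against Col1a1-miR-29b without TGF-β, 4 were called, 0 with only the groups compared or the replicate block, 1 without the f libraries or by either limma fit, and 6 by DESeq2, with 1 to 3 when a library was left out. With TGF-β, 2 were called, 1 with a filter of at least 1 count, and 0 with only the groups compared, the replicate block, the f libraries left out, or either limma fit, with 0 to 1 when a library was left out. The block and limma fits had 16 libraries, and the cause of these shifts was not tested. Of 881 recomputed values of members in the averaged comparison or at an unadjusted p under 0.05, 746 kept direction and call, 114 lost the call, 19 gained it and 2 changed sign. Both were Psph with TGF-β averaged, −0.03 in the report, 0.0098 with the replicate block and 0.0094 without the f libraries. Libraries of the same letter did not deviate together (mean r 0.015 over 36 pairs against −0.008 over 70 others), so the letters were not taken as pairs. Over all genes, Col1a1-miR-29b against the empty vector gave 1327 calls without TGF-β, 2321 by DESeq2 and 161 with the replicate block, and 2738 with TGF-β, 3488 by DESeq2 and 1072 with only the groups compared. CMV-miR-29b gave 1 and 2 calls, 43 and 264 by DESeq2. The 2 miR-29b plasmids differed in 382 genes without and 408 with TGF-β, 1179 and 1091 by DESeq2. TGF-β alone gave 1245, 914 and 1047 calls for the empty, Col1a1-miR-29b and CMV-miR-29b plasmids, and at fewest 618, 394 and 527. With 3 libraries a group, the SE of 0.0868 for Pycr1 limits single comparisons of that gene.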
